A study of Mus musculus with 32 samples.

Results

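The extracellular matrix genes described here are 41 mouse genes for collagens, adhesive and matricellular glycoproteins, proteoglycans, elastic fibre parts, lysyl oxidases, matrix proteases with their inhibitors, and matrix-regulating ligands. They were chosen by symbol, with earlier results of these data known, and followed by Ensembl gene ID through 2 tables of read counts. These tables list 27843 genes for AML12 and 55414 for HL-1. Shares of members called, set below beside those of all genes, may partly come from that choice, which was not tested. All 41 are listed for HL-1 and 37 for AML12. Col3a1, Lum, Eln and Smoc2 were not analysed here in AML12. The series concerned rhythmic communication between a pair of cell types. AML12, a hepatocyte line set up from the liver of a mouse carrying a human TGF-alpha transgene, was sampled as control cells or after DEX treatment (the labels' abbreviation), at 17 h and at 25 h. HL-1, a line grown from a tumour of mouse atrial cardiomyocytes, was sampled at 16 h and at 28 h. HL-1 cells received medium from AML12 cells, either control medium with no DEX synchronization or conditioned medium (CM) from DEX-synchronized cells. Each of the 8 groups holds 4 libraries of total RNA, 32 in all. Every HL-1 group, controls included, therefore had AML12 medium, and each line is 1 line with no second source of cells.

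The extracellular matrix is the mesh of secreted proteins that surrounds cells, in which fibrillar collagens bear tension, type IV collagen forms the sheet of the basement membrane, and type VI collagen forms beaded filaments around cells. Glycoproteins such as fibronectin and the thrombospondins link that mesh to integrins, lysyl oxidases cross-link collagen and elastin, and metalloproteases and plasminogen activators remodel it under the control of tissue inhibitors of metalloproteases. In liver and heart most fibrillar matrix is made by stellate cells and fibroblasts, and transforming growth factor beta is a main inducer of it.

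Total counts per library ran from 15.0 to 17.5 M in AML12 and from 15.7 to 19.3 M in HL-1, where the CM groups were deeper on average than their controls. No label says whether libraries of the same group are separate cultures. The p-values therefore rest on the spread among these samples alone, which may be technical. By chi-square per degree of freedom over genes, every pair of replicates differed beyond sampling noise. DEX 17 h replicate 2 of AML12 stood farthest from its group (13.6 to 18.1), followed by HL-1 control 16 h replicates 1 and 3 from each other (16.6). Among DEX 25 h libraries replicate 4 stood apart (up to 5.06). Of 10 hepatocyte markers, 2 exceeded 10 CPM (counts relative to the scaled library size) in AML12 and 4 were under 1 CPM, whereas all 5 bile duct markers listed exceeded 10 CPM. Of 12 cardiomyocyte markers 3 exceeded 10 CPM in HL-1, Tnnt2 at 34.5, Gja1 at 466 and Des at 524 CPM. The other 9 were under 1 CPM. Among them Myh6, Actc1 and Nppa had 4 to 5 counts over 16 libraries and Pln had 0. Tnnt2 stood at 55.1 CPM in AML12. Of 12 fibroblast and stellate cell markers 6 exceeded 10 CPM in HL-1, with Acta2 at 356 and Pdgfrb at 106 CPM, whereas Tcf21 and Lrat had 0 counts and Thy1 had 4. In AML12, 9 of these 12 markers were listed, and Vim was the only one over 10 CPM. Some members share exon bases with genes on the other strand, among them Fbn1 (2442 bases, with Gm9913), Timp3 (1733, with Syn3), Loxl3 (535, with Htra2), Loxl2 (301, with Gm27177), Fn1 (292, with Apol7d), Thbs1 (208, with Gm29233), Tnc (176, with 8030451A03Rik), Tgfb2 (124, with Gm29491) and Col5a1 (113, with Gm13372). The sources used here do not give the strand setting, so reads of these pairs cannot be told apart.

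A RefSeq promoter window was matched for 24 of the 41 members. The 250 bases before the start are printed for 4 whose mRNA was lower in treated cells: Tnc (chr4:64047016-64047265, minus strand) and Adamts1 (chr16:85803114-85803363, minus strand) in AML12, and Thbs2 (chr17:14694263-14694512, minus strand) and Col3a1 (chr1:45311288-45311537, plus strand) in HL-1. They are from RefSeq on GRCm38.p6, written 5′ to 3′ along the gene. Capitals mark exact matches, on either strand, to the 8 motifs named after the sequences.
Tnc: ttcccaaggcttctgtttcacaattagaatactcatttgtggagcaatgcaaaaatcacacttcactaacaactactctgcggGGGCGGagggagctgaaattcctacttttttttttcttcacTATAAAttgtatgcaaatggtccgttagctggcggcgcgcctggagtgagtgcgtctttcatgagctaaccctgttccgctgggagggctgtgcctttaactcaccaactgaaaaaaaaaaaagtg
Adamts1: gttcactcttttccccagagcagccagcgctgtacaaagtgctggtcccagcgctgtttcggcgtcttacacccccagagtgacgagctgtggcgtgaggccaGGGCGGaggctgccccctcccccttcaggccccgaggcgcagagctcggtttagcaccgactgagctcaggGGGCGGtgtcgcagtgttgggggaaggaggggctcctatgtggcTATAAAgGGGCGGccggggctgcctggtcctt
Thbs2: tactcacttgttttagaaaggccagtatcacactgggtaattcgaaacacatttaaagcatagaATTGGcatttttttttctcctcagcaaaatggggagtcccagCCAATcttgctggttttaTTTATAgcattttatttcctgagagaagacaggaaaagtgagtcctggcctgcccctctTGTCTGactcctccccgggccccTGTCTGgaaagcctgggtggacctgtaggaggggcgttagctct
Col3a1: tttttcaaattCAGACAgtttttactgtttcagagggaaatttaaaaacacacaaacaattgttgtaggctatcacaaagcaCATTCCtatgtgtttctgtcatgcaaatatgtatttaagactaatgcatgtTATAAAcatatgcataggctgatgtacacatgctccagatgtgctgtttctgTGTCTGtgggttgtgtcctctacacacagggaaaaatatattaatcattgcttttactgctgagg
The motifs were TATAAA (the TATA box), CCAAT (the CCAAT box), GGGCGG (the GC box), TGACTCA (the AP-1 site), CAGACA (a SMAD motif), GGAATG (a TEAD motif), AGAACA (a glucocorticoid receptor motif) and CACGTG (the E-box), each also read as its reverse complement (TGAGTCA is that of TGACTCA and was not counted apart). Adamts1 has TATAAA starting 32 bases before its start, with GGGCGG at 25, 76 and 147 bases before it. Tnc has TATAAA at 126 and GGGCGG at 167 bases. Thbs2 has CAGACA, as TGTCTG on the printed strand, at 44 and 67 bases, a TATAAA match at 126 and CCAAT matches at 144 and 186. Col3a1 has CAGACA at 65 and 239 bases, TATAAA at 117 and GGAATG at 168.

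Over the 24 members with a window, GGGCGG was found in 15 (62.5%, against 32.7% of 32851 RefSeq windows of the same length), TATAAA in 6 (25.0%, against 12.4%), CAGACA in 7 (29.2%, against 17.1%) and CCAAT in 8 (33.3%, against 33.8%). AGAACA was found in 3 (against 16.1% of windows), GGAATG in 2 (against 12.6%), CACGTG in 2 (against 6.02%) and TGACTCA in 1 (against 4.46%). Each member counts by 1 window, the one nearest its GENCODE start, whereas the 32851 windows were taken without choosing 1 per gene or by gene type. The 2 sets are thus unlike, and their shares were not tested against each other. These matches describe the letters of the windows and name no bound site. Not matched to a window were Col1a1, Col5a2, Col12a1, Fn1, Thbs1, Smoc2, Dcn, Lum, Eln, Lox, Loxl1, Loxl2, Loxl3, Adam12, Mmp2, Plat and Sfrp4.

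Matrix genes took a larger part of the HL-1 libraries than of the AML12 libraries, and the lines differed in which matrix genes were abundant. The 41 members listed for HL-1 took 1.18% of the scaled library in HL-1 controls at 16 h (n = 4). The 37 listed for AML12, without Col3a1, Lum, Eln and Smoc2, took 0.495% in AML12 controls at 17 h (n = 4). RPKM is the CPM per kilobase of exon, a level per length. As a mean of 16 libraries, 36 of 41 HL-1 members and 18 of 37 AML12 members reached 1 RPKM. At 10 RPKM the counts were 29 and 14. Of the 37 members in both tables, 26 had all 16 HL-1 libraries above all 16 AML12 libraries, 6 had them all below, and 5 overlapped. The 6 higher in AML12 were the basement membrane collagens Col4a1 and Col4a2, the microfibril glycoprotein Fbln2, the cross-linking enzyme Loxl2, the plasminogen activator Plat and the proteoglycan-cleaving protease Adamts1. The 5 that overlapped were Adam12, Mmp14, Tgfb1, Tgfbi and Timp2. Line and count table cannot be told apart, so no test was made of these differences.

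Among collagens, the basement membrane chains led in AML12. Per length, with AML12 first in each pair that follows, Col4a1 lay at 67.1 ± 8.36 RPKM (mean ± SD, 16 libraries) in AML12 and at 33.5 ± 5.29 RPKM in HL-1, and Col4a2, the partner chain that starts head to head with it, at 53.4 ± 4.91 against 29.3 ± 4.76 RPKM. The fibrillar collagens were low in AML12. Col1a1, a chain of type I collagen, had 0.607 ± 0.117 against 26.7 ± 8.84 RPKM, and Col3a1, the type III chain, lay at 148 ± 38.7 RPKM in HL-1, the highest of the collagens there. Col1a2, the other type I chain, had 2 counts over all AML12 libraries and 68.0 ± 14.0 RPKM in HL-1. Type V collagen, which sets the width of fibrils, followed the same order, with Col5a1 at 0.152 ± 0.102 against 42.8 ± 17.5 RPKM and Col5a2 at 11 counts against 43.0 ± 3.28 RPKM. Of the type VI chains, which assemble as a trimer, Col6a1 lay at 22.1 ± 3.44 against 98.3 ± 51.2 RPKM and Col6a2 at 0.718 ± 0.233 against 14.6 ± 6.79 RPKM, whereas Col6a3 had 0.0776 ± 0.0475 RPKM in AML12 and 118 ± 23.4 in HL-1. The type VI chains were thus unequal in AML12, where the level per length of Col6a1 exceeded that of Col6a3 in every library. Col12a1, a collagen that decorates fibrils, had 3.64 ± 0.979 against 17.2 ± 7.14 RPKM.

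Of the glycoproteins, Fn1 (fibronectin) was abundant in both lines at 139 ± 24.9 against 298 ± 103 RPKM, as were Sparc, a collagen-binding protein, at 72.5 ± 11.4 against 364 ± 76.1 RPKM, and Thbs1, an activator of latent TGF-beta, at 43.0 ± 16.4 against 159 ± 28.0 RPKM. Tnc (tenascin-C, an adhesion-modulating protein) had 3.62 ± 1.98 against 35.5 ± 18.5 RPKM. Thbs2, the second thrombospondin, had 16 counts over the AML12 libraries and 113 ± 60.2 RPKM in HL-1. Postn (periostin, a fibroblast matricellular protein) was low in both lines at 0.0633 ± 0.0287 against 0.637 ± 0.243 RPKM, and Tgfbi, an integrin-binding protein, had 5 counts in AML12 and 0.115 ± 0.102 RPKM in HL-1. Smoc2, a SPARC-related protein, lay at 0.178 ± 0.0785 RPKM in HL-1. The small leucine-rich proteoglycans bind collagen fibrils: Bgn (biglycan) had 0.0908 ± 0.0394 against 20.6 ± 1.83 RPKM, Dcn (decorin) 2 counts against 3.92 ± 1.83 RPKM, and Lum (lumican) 4 counts in HL-1. Elastin itself (Eln) had 2 counts in HL-1. The microfibril gene Fbn1 had 22 counts against 12.8 ± 3.12 RPKM, Fbln1 21 counts against 19.3 ± 2.60 RPKM, and Fbln2 87.7 ± 19.4 against 25.7 ± 3.34 RPKM.

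The leading lysyl oxidase was Loxl2 in AML12 and Lox in HL-1. Lox had 2 counts over 16 AML12 libraries and 251 ± 139.6 RPKM in HL-1, whereas Loxl2 lay at 26.9 ± 6.40 against 6.74 ± 3.99 RPKM. Loxl1 had 0.195 ± 0.0465 against 15.7 ± 3.79 RPKM and Loxl3 1.51 ± 0.241 against 21.5 ± 1.06 RPKM. Among proteases, Mmp2 (gelatinase A) had 14 counts in AML12 and 15.5 ± 5.52 RPKM in HL-1, while Mmp14, the membrane-bound protease that activates it, had 32.9 ± 1.54 against 39.8 ± 8.71 RPKM. Adamts1 lay at 39.2 ± 13.1 against 7.34 ± 0.609 RPKM, Plat (tissue plasminogen activator) at 25.9 ± 3.73 against 6.65 ± 4.42 RPKM and Adam12, a disintegrin and metalloprotease, at 2.11 ± 1.74 against 1.02 ± 0.342 RPKM. The inhibitor Timp2 was high in both lines at 166 ± 19.2 against 151 ± 13.6 RPKM. Timp1 had 21.4 ± 2.52 against 194 ± 23.2 RPKM, and Timp3, which stays bound in the matrix, 25 counts against 20.7 ± 5.01 RPKM. Of the ligands, Tgfb1 had 14.3 ± 1.11 against 14.6 ± 2.17 RPKM and Tgfb2 0.885 ± 0.243 against 5.05 ± 1.39 RPKM. Sfrp4, a secreted Wnt antagonist, had 18 counts against 2.42 ± 1.87 RPKM.

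**Figure D1:**
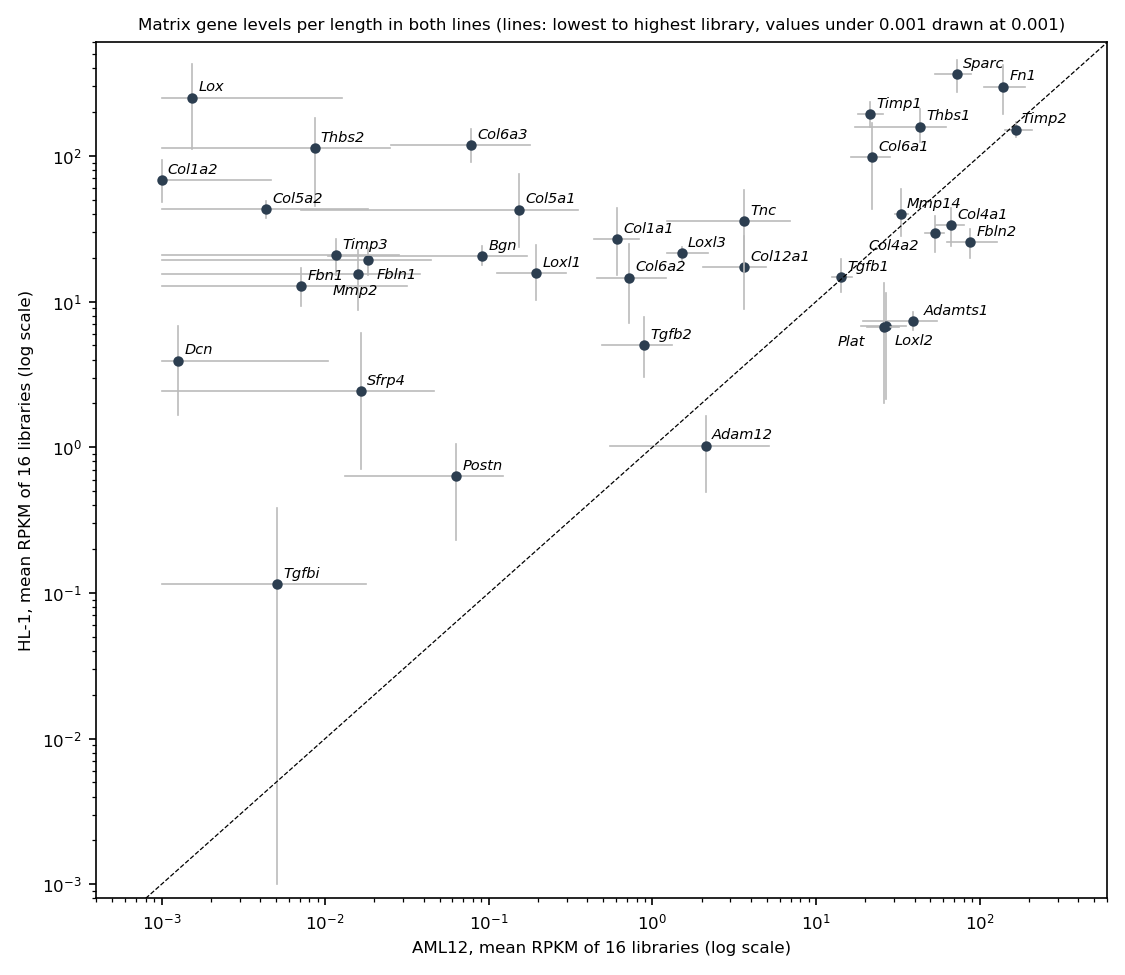
Mean RPKM of each member in AML12 (horizontal, log scale) against HL-1 (vertical, log scale), with grey lines from the lowest to the highest of 16 libraries and the dashed line marking equal levels. Of the 37 members, 26 have HL-1 ranges wholly above the AML12 range, and Lox, Thbs2 and Col1a2 sit farthest to the upper left.

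The members with the highest level per length of their role in a line showed how even the libraries were. In AML12 controls at 17 h, Fn1 lay at 1699, 1739, 1507 and 1491 CPM, Col4a1 at 456, 485, 453 and 457 CPM and Timp2 at 585, 559, 567 and 569.7 CPM. Loxl2 had 113, 124, 116 and 120.1 CPM in the same libraries and Tgfb1 73.0, 65.7, 64.9 and 71.6 CPM. Bgn, low in AML12, had 0.513, 0.584, 0.628 and 0.291 CPM. Timp2 was the most even of these and Bgn the least. In HL-1 controls at 16 h, Col3a1 lay at 1168, 1231, 1302 and 1213 CPM, Col6a3 at 1091, 1151, 1150.0 and 1081 CPM and Sparc at 1061, 1033, 1069 and 1110.0 CPM. Lox had 592, 576, 603 and 563 CPM and Timp1 191, 191, 208 and 207 CPM there. Bgn had 111, 112, 111 and 109 CPM, Fbln2 126, 145, 143 and 137 CPM and Tgfb1 58.4, 60.3, 73.0 and 62.5 CPM. The lowest library was replicate 1 for Fbln2 and Tgfb1.

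DEX treatment changed most of the matrix genes that AML12 cells express, some up and some down. At 17 h, the 3 type VI collagen chains, the type V chain Col5a1, Fbln2 and Adam12 were higher in DEX cells, and Tnc, Thbs1, Adamts1 and Tgfb2 were lower. Of 26 members tested, 9 rose and 9 fell (69.2% called by edgeR's quasi-likelihood test at a Benjamini-Hochberg adjusted p of 0.05), against 38.4% of all 14114 genes tested (20.5% higher, 17.9% lower). At 25 h, 4 rose and 8 fell (46.2% called), against 11.7% of all genes (6.79% higher, 4.96% lower). The members were chosen with earlier results of these data known, and the part of that choice in these shares was not tested. The median log2 fold change of the members was -0.06 at 17 h and -0.04 at 25 h, against 0.00 for all genes tested at each time. All 12 members called at 25 h were also called at 17 h, each in the same direction, and 6 were called at 17 h alone. The share of all genes called at both times was not computed. The controls of the 2 times are different libraries. The other 11 listed members (Col1a2, Col5a2, Thbs2, Tgfbi, Dcn, Fbn1, Fbln1, Lox, Mmp2, Timp3 and Sfrp4) had 2 to 25 counts over the 16 libraries and were not tested. At 17 h, 15 of the 18 called members had DEX and control libraries that did not overlap, and at 25 h all 12 (38.4% and 11.7% of all genes were called). Over all genes tested the groups did not overlap for 34.1% and 18%, and over all called genes for 81.7% and 91.2%. Fewer cells of a type and less RNA per cell cannot be told apart in these bulk libraries. The summed CPM of fibroblast and stellate markers, nearly all Vim, ran from 2340.0 to 2555 in DEX cells and from 2274 to 2393 in controls at 17 h. At 25 h it ran from 2370.0 to 2532 and from 2182 to 2316, and hepatocyte markers summed to 282 to 295 CPM in DEX cells and 383 to 420.2 CPM in controls at 17 h, with 388 to 412 and 369 to 408 at 25 h. Immune markers summed to 111 to 120 CPM in DEX cells and 166 to 176 in controls at 17 h, and to 232 to 243 and 203 to 224 at 25 h. Bile duct markers summed to 3594 to 3809 and 3736 to 3916 CPM at 17 h, and to 4197 to 4424 and 4545 to 4763 at 25 h. Endothelial markers summed to 2.65 to 3.74 and 3.90 to 5.58 CPM at 17 h, and cardiomyocyte markers to 78.0 to 90.7 and 66.2 to 73.0 CPM at 25 h. By mean level in AML12, the hepatocyte sum was nearly all Hnf4a and Apob, and the immune sum Cd14. The bile duct sum was mostly Krt19 and Spp1, and the cardiomyocyte sum mostly Tnnt2 and Gja1. The part of these markers in the results was not tested.

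**Figure D2:**
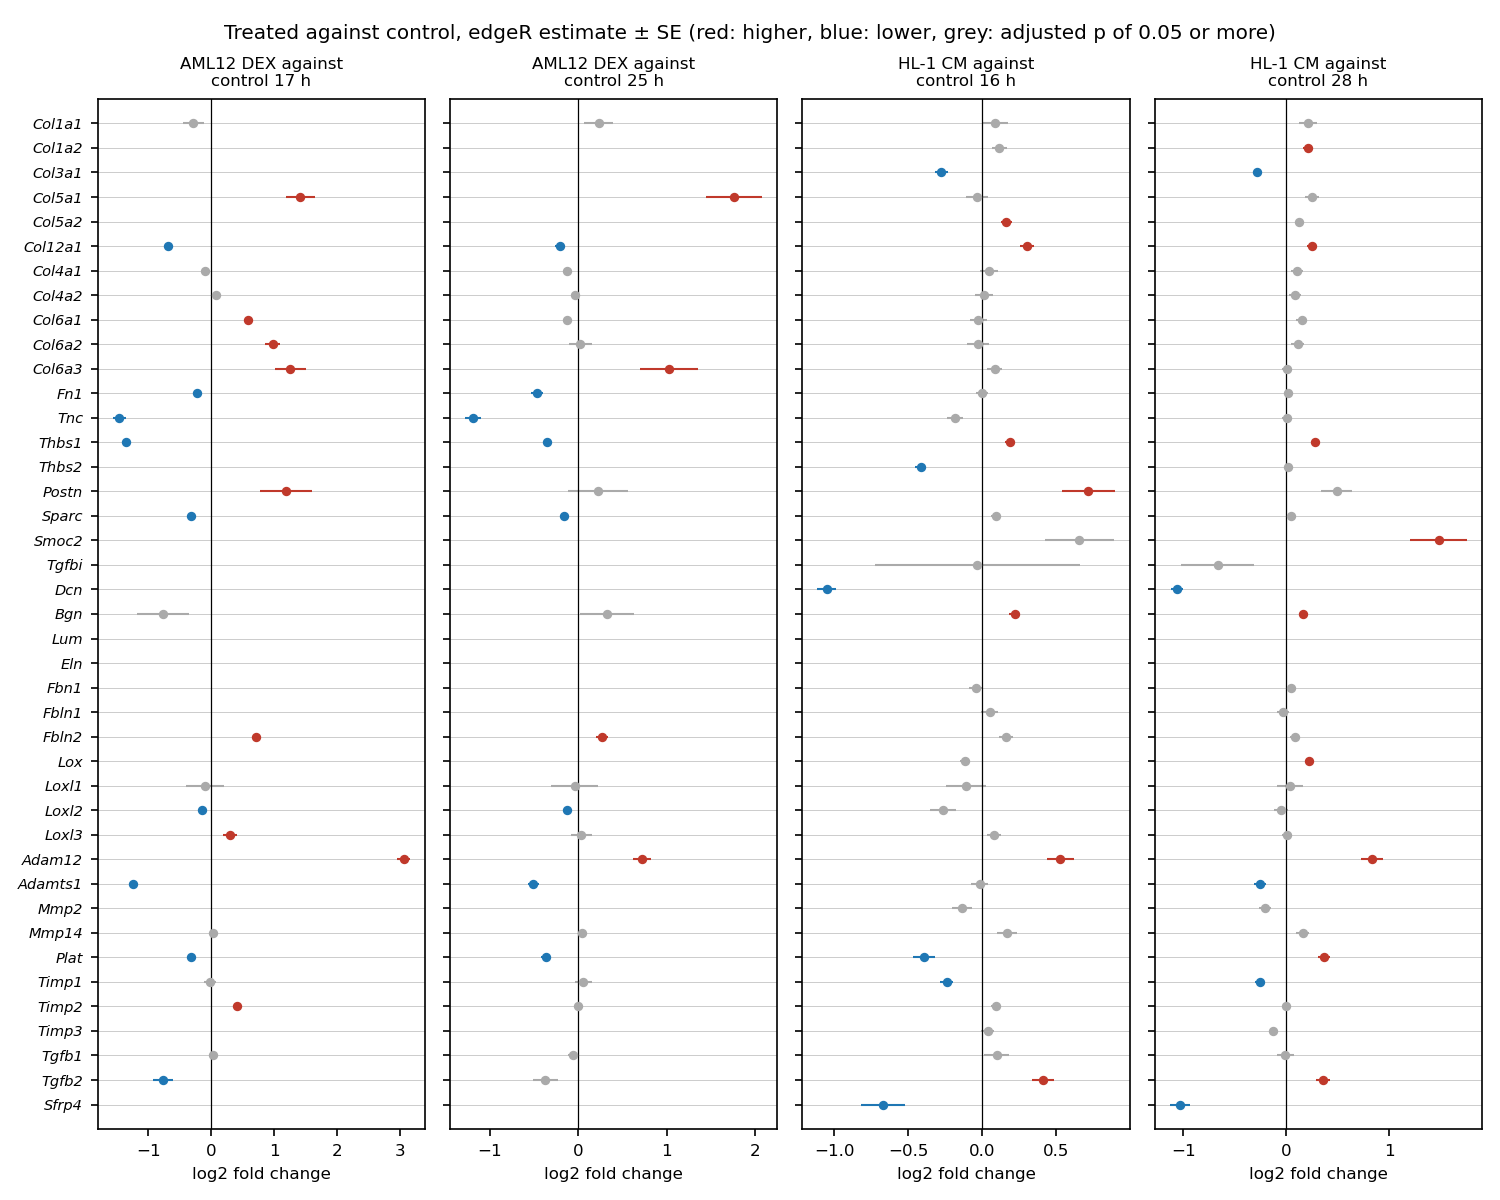
Log2 fold change of each tested member (points, edgeR estimate; bars, SE) for treated against control libraries, 1 panel per comparison with its own horizontal scale. Red and blue points passed the test; in AML12 they spread from -1.46 (Tnc) to 3.05 (Adam12) at 17 h, and in HL-1 from -1.06 (Dcn) to 1.48 (Smoc2) at 28 h.

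The collagens split by type in DEX-treated AML12 cells. Type VI chains rose at 17 h: Col6a1 lay at 79.6, 74.7, 77.7 and 71.9 CPM in controls and at 124, 112, 115 and 103 CPM in DEX cells. All 4 DEX values were above all 4 controls, and the log2 fold change was 0.58 ± 0.05 (± SE, here and after; edgeR adjusted p = 1.98e-09). Col6a2 went from 4.81, 5.13, 4.51 and 3.84 CPM to 8.89, 9.44, 10.1 and 7.41 CPM, with no overlap and a log2 fold change of 0.97 ± 0.12 (edgeR adjusted p = 7.49e-07). Col6a3, the chain with the least mRNA, went from 0.706, 0.779, 0.857 and 0.581 CPM to 1.45, 1.58, 2.13 and 1.85 CPM, again with no overlap (1.26 ± 0.25, edgeR adjusted p = 0.000244). All 3 chains of the trimer were therefore higher at 17 h. At 25 h Col6a1 stood at 91.5 to 98.0 CPM in DEX cells and 96.3 to 109 CPM in controls (-0.13 ± 0.05, edgeR adjusted p = 0.118), and Col6a2 at 4.10 to 6.41 and 4.98 to 5.26 CPM (0.02 ± 0.13, edgeR adjusted p = 0.948). The 25 h difference of Col6a1, below 0, passed without control 25 h replicate 3 (log2 value -0.17, edgeR adjusted p 0.041) and with only the compared groups in the fit (adjusted p 0.0462), and over all alternatives its adjusted p ran from 0.041 to 0.223. Only Col6a3 of the 3 chains was called at 25 h, at 0.472, 0.303, 0.308 and 0.521 CPM in controls and 0.645, 0.635, 0.621 and 1.40 CPM in DEX cells (1.02 ± 0.33, edgeR adjusted p = 0.0461). The DEX value of replicate 4 was more than that of any other 25 h library. For Col6a3, leaving out DEX 25 h replicate 4 or control 25 h replicate 1, 2, 3 or 4 ended the call (log2 values 0.64 to 1.17, edgeR adjusted p 0.0508 to 0.347), as did DESeq2, limma-voom, no low-count filter, only the compared groups in the fit and thinned counts (adjusted p 0.0522 to 0.0812), and over all alternatives its adjusted p ran from 0.0409 to 0.347. The 0.64 was the value without DEX replicate 4.

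Col5a1, the type V chain that starts fibrils, was raised at both times. It lay at 1.03, 0.714, 1.08 and 0.988 CPM in 17 h controls and 2.66, 2.53, 2.99 and 2.10 CPM in DEX cells, and at 0.472, 0.0607, 0.615 and 0.347 CPM in 25 h controls and 1.35, 1.27, 0.994 and 1.47 CPM in DEX cells. The groups did not overlap at either time, with log2 fold changes of 1.42 ± 0.22 (edgeR adjusted p = 1.69e-05) and 1.76 ± 0.32 (edgeR adjusted p = 0.000414). These are low levels of 24 to 167 counts per group. Col12a1 moved the other way. Its 17 h controls held 54.5, 58.8, 51.4 and 51.8 CPM and its DEX cells 34.4, 35.7, 33.2 and 30.9 CPM (-0.69 ± 0.06, edgeR adjusted p = 8.87e-10). Later, at 25 h, it lay at 74.9, 74.9, 73.1 and 65.4 CPM in controls and 59.9, 64.1, 63.7 and 60.9 CPM in DEX cells (-0.21 ± 0.05, edgeR adjusted p = 0.0086), so every DEX library was below every control at both times. The basement membrane chains did not pass, with Col4a1 at -0.10 ± 0.05 (edgeR adjusted p = 0.0924) and -0.12 ± 0.05 (edgeR adjusted p = 0.0818) and Col4a2 at 0.07 and -0.04. Col4a1 at 17 h passed without DEX 17 h replicate 2 (log2 value -0.12, edgeR adjusted p 0.0387) and with total-count scaling (adjusted p 0.0156), and over all alternatives its adjusted p ran from 0.0156 to 0.257. At 25 h it passed without DEX 25 h replicate 1 or control 25 h replicate 4 (log2 values -0.17 to -0.16, edgeR adjusted p 0.0279 to 0.038), and over all alternatives its adjusted p ran from 0.0279 to 0.227. Col1a1 did not pass either, at -0.28 ± 0.17 and 0.23 ± 0.16.

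Adhesive glycoproteins were mostly lower in DEX cells, 4 of 5 tested at 17 h (Fn1, Tnc, Thbs1 and Sparc), and the same 4 were called lower at 25 h. Tnc, whose promoter window is printed above, had 30.6, 27.3, 29.9 and 27.0 CPM in 17 h controls and 10.2, 11.7, 10.4 and 9.57 CPM in DEX cells. At 25 h it had 49.3, 54.0, 49.8 and 50.6 CPM and 24.4, 24.0, 25.2 and 15.6 CPM. The DEX values were all below the controls at both times, and DEX replicate 4 was lowest at 25 h. The log2 fold changes were -1.46 ± 0.11 (edgeR adjusted p = 8.44e-11) and -1.19 ± 0.09 (edgeR adjusted p = 1.71e-08). Thbs1 went from 272, 279, 267 and 272 CPM in controls to 109.6, 107, 107 and 106 CPM at 17 h, and from 378, 369.6, 375 and 366 CPM to 285, 299.7, 297 and 286 CPM at 25 h. Its libraries were tight and did not overlap, and the log2 fold change was -1.34 ± 0.04 at 17 h (edgeR adjusted p = 1.01e-18) and -0.35 ± 0.03 at 25 h (edgeR adjusted p = 1.6e-07). Sparc, at 267 ± 11.9 CPM in controls and 214 ± 11.1 CPM in DEX cells at 17 h (mean ± SD, n = 4), fell by 0.32 on the log2 scale, and by 0.17 at 25 h (edgeR adjusted p = 2.02e-06 and 0.0105). Fibronectin had 1379, 1519, 1370.0 and 1240.0 CPM in DEX cells at 17 h, which overlapped the controls given above (-0.22 ± 0.07, edgeR adjusted p = 0.0109). For Fn1, leaving out control 17 h replicate 2 ended the call (log2 value -0.19, edgeR adjusted p 0.0521), and over all alternatives its adjusted p ran from 2.11e-06 to 0.0521. At 25 h its DEX values of 1538, 1537, 1531 and 1316 CPM lay wholly below the controls at 2137, 2220.0, 2036 and 1788 CPM (-0.47 ± 0.07, edgeR adjusted p = 2.67e-05).

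Postn was the glycoprotein that rose. It had 0.257, 0.325, 0.114 and 0.407 CPM in 17 h controls and 0.665, 0.507, 0.671 and 0.679 CPM in DEX cells, with no overlap (1.18 ± 0.41, edgeR adjusted p = 0.0255). The groups held 18 and 41 counts. For Postn, leaving out DEX 17 h replicate 1, 3 or 4 or control 17 h replicate 1 or 3 ended the call (log2 values 0.91 to 1.15, edgeR adjusted p 0.0515 to 0.102). Over the 15 of 16 alternatives that tested Postn, its adjusted p ran from 0.0159 to 0.102. At 25 h the values overlapped, at 0.404 to 0.910 CPM and 0.373 to 1.06 CPM (0.22 ± 0.33, edgeR adjusted p = 0.764). Fbln2, which links microfibrils and basement membranes, had 465, 471, 454 and 399.8 CPM in controls and 748, 700.0, 813 and 678 CPM in DEX cells at 17 h. Its DEX libraries were all higher (0.72 ± 0.07, edgeR adjusted p = 5.31e-09). Its 25 h libraries had 488, 503, 472 and 447 CPM and 558, 556, 520.4 and 666 CPM, still with no overlap (0.27 ± 0.07, edgeR adjusted p = 0.00776). For Fbln2, leaving out DEX 25 h replicate 4 ended the call (log2 value 0.18, edgeR adjusted p 0.0768), and over all alternatives its adjusted p ran from 2.2e-07 to 0.0768. Bgn did not pass at 17 h (-0.76 ± 0.41, edgeR adjusted p = 0.148) or at 25 h (0.32 ± 0.31, edgeR adjusted p = 0.594), with DEX values of 0.302, 0.0634, 0.488 and 0.309 CPM at 17 h.

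**Figure D3:**
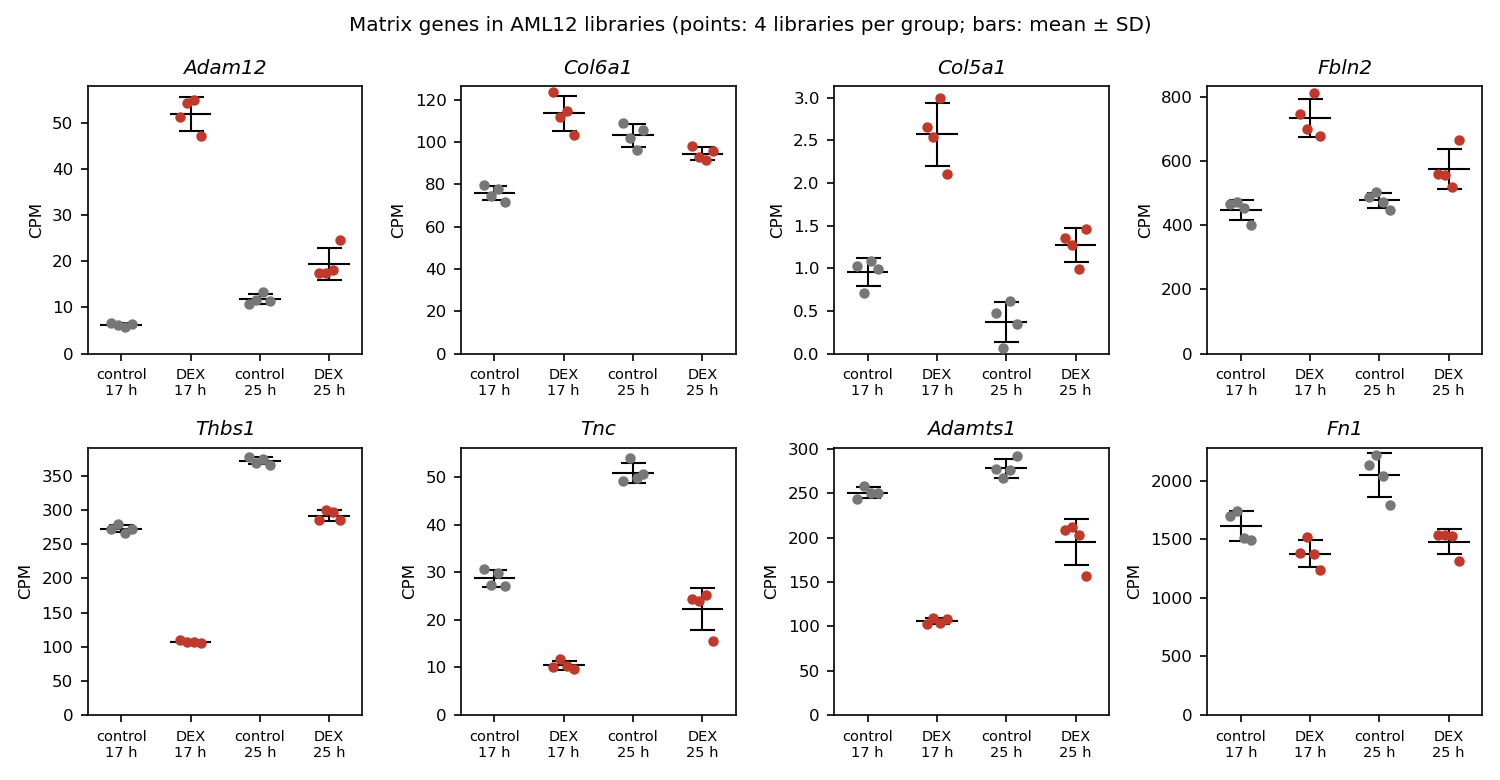
CPM of 8 members in the 16 AML12 libraries (points, 4 per group; bars, mean ± SD), with linear axes from 0. Adam12 stands at 47.1 to 54.9 CPM in DEX cells at 17 h, above every other group, while Thbs1, Tnc and Adamts1 have their lowest values there.

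The proteases held the widest change. Adam12 (chr7:133883199-134232146, minus strand, in GENCODE M21 on GRCm38) had 6.61, 6.23, 5.83 and 6.34 CPM in 17 h controls and 51.2, 54.4, 54.9 and 47.1 CPM in DEX cells, 8.31-fold higher (3.05 ± 0.10, edgeR adjusted p = 3.49e-17). By 25 h it had 10.7, 11.7, 13.3 and 11.3 CPM in controls and 17.5, 17.4, 18.0 and 24.6 CPM in DEX cells (0.72 ± 0.10, edgeR adjusted p = 1.29e-05). Every DEX library was above every control at both times, and DEX replicate 4 was the highest at 25 h. Adamts1, also with its promoter printed above, was lower: 244, 258, 251 and 250.3 CPM in 17 h controls and 103, 109, 104 and 108 CPM in DEX cells (-1.24 ± 0.06, edgeR adjusted p = 1.67e-13). Its 25 h values were 277, 267, 276 and 292 CPM and 209, 212, 203 and 156 CPM, with no overlap and DEX replicate 4 the lowest (-0.51 ± 0.06, edgeR adjusted p = 2.58e-06). Plat fell at both times, with 162 to 179 CPM in controls and 128 to 145 CPM in DEX cells at 17 h (-0.31 ± 0.05, edgeR adjusted p = 1.82e-05), and 180.3 to 202 and 135 to 157 CPM at 25 h (-0.37 ± 0.05, edgeR adjusted p = 8.15e-06). The inhibitor Timp2 rose at 17 h to 740.2, 812, 760.0 and 733 CPM, all above the controls (0.42 ± 0.04, edgeR adjusted p = 1.63e-09). At 25 h it stood at 624 to 633 CPM in DEX cells and 615 to 633 CPM in controls, a log2 fold change of 0.00 ± 0.04, which did not pass. Timp1 and Mmp14 did not pass at either time, with log2 fold changes from -0.02 to 0.06 and from 0.03 to 0.04.

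The lysyl oxidases moved little. Loxl2 lay at 103, 118, 102 and 107 CPM in DEX cells at 17 h, which overlapped the controls (-0.14 ± 0.04, edgeR adjusted p = 0.0137). For Loxl2, leaving out control 17 h replicate 2 ended the call (log2 value -0.12, edgeR adjusted p 0.0595), and over all alternatives its adjusted p ran from 0.000284 to 0.0595. Its 25 h values were 166 to 173 CPM in DEX cells and 182 to 193 CPM in controls (-0.13 ± 0.04, edgeR adjusted p = 0.0421). For Loxl2, leaving out DEX 25 h replicate 3 or 4 or control 25 h replicate 3 or 4 ended the call (log2 values -0.15 to -0.13, edgeR adjusted p 0.0501 to 0.0862), as did no low-count filter (adjusted p 0.075), and over all alternatives its adjusted p ran from 0.0124 to 0.0862. Loxl3 had 5.65, 7.86, 6.00 and 7.33 CPM in 17 h controls and 10.0, 7.10, 8.36 and 7.59 CPM in DEX cells, which overlapped (0.31 ± 0.11, edgeR adjusted p = 0.0359). For Loxl3, leaving out DEX 17 h replicate 1 or 3 or control 17 h replicate 1 or 3 ended the call (log2 values 0.19 to 0.29, edgeR adjusted p 0.0689 to 0.205), as did DESeq2, no low-count filter, only the compared groups in the fit, thinned counts and total-count scaling (adjusted p 0.0522 to 0.0882), and over all alternatives its adjusted p ran from 0.0119 to 0.205. The 0.19 was the value without DEX replicate 1. Loxl1 did not pass, at -0.10 ± 0.30 and -0.04 ± 0.27. Of the ligands, Tgfb2 went from 5.71, 5.26, 6.17 and 5.35 CPM in controls to 3.15, 3.87, 3.42 and 2.84 CPM at 17 h with no overlap (-0.76 ± 0.16, edgeR adjusted p = 0.000359), and stood at -0.37 ± 0.14 at 25 h (edgeR adjusted p = 0.0977). The 25 h difference passed without DEX 25 h replicate 3 (log2 value -0.49, edgeR adjusted p 0.0366), and over all alternatives its adjusted p ran from 0.0366 to 0.316. Tgfb1 did not pass, at 0.03 ± 0.07 and -0.06 ± 0.06.

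The response to DEX differed between the times for 8 of 26 members (30.8% called by the test of the difference itself, against 16.2% of all genes, 7.91% higher and 8.27% lower). For all 8 the log2 fold change was nearer 0 at 25 h. That of Col6a1 was below 0 there and did not pass in the reported fit. The difference of the fold changes, 25 h minus 17 h, was -2.33 ± 0.15 for Adam12 (edgeR adjusted p = 2.14e-11), -0.95 ± 0.18 for Col6a2 (edgeR adjusted p = 0.000498) and -0.71 ± 0.07 for Col6a1 (edgeR adjusted p = 1.04e-07). It was -0.45 ± 0.09 for Fbln2 (edgeR adjusted p = 0.00147) and -0.42 ± 0.05 for Timp2 (edgeR adjusted p = 1.78e-06). These 5 genes had risen at 17 h. Among genes that had fallen, it was 0.99 ± 0.05 for Thbs1 (edgeR adjusted p = 2.92e-13), 0.73 ± 0.09 for Adamts1 (edgeR adjusted p = 1.73e-06) and 0.48 ± 0.08 for Col12a1 (edgeR adjusted p = 0.000104). Col5a1 (0.34 ± 0.40, edgeR adjusted p = 0.64), Tnc (0.27 ± 0.14, edgeR adjusted p = 0.233) and Fn1 (-0.24 ± 0.10, edgeR adjusted p = 0.0939) did not pass. The difference of Tnc passed without DEX 25 h replicate 4 (log2 value 0.40, edgeR adjusted p 0.00379), and over all alternatives its adjusted p ran from 0.00379 to 0.429. That of Fn1 passed without DEX 17 h replicate 4 or control 25 h replicate 4 (log2 values -0.31 to -0.29, edgeR adjusted p 0.0246 to 0.0379) and with no low-count filter (adjusted p 0.00484), and over all alternatives its adjusted p ran from 0.00403 to 0.188. Tgfb2 passed without DEX 25 h replicate 4 (log2 value 0.53, edgeR adjusted p 0.0499), and over all alternatives its adjusted p ran from 0.0499 to 0.45. Sparc passed without DEX 17 h replicate 3 (log2 value 0.18, edgeR adjusted p 0.0474) and with total-count scaling (adjusted p 0.0284), and over all alternatives its adjusted p ran from 0.0284 to 0.229.

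Conditioned medium changed 17 matrix genes at one time or both in HL-1 cells. Decorin, Sfrp4, Col3a1 and Timp1 were lower in CM cells at both times, and Adam12, Tgfb2, Col12a1, Thbs1 and Bgn were higher. At 16 h, 7 of 39 tested members rose and 6 fell (33.3% called by edgeR's quasi-likelihood test with Benjamini-Hochberg adjustment), against 2.03% of all 14450 genes tested (0.83% higher, 1.2% lower). At 28 h, 9 rose and 5 fell (35.9%), against 1.92% of all genes (0.706% higher, 1.22% lower). Here too, the part played in these shares by choosing the members with earlier results known was not tested. The median log2 fold change of the members was 0.04 at 16 h and 0.05 at 28 h, against 0.00 and -0.01 for all genes tested. Lum and Eln were not tested. Of the members called at both times, 9 had the same direction and 1, Plat, the opposite one. At 16 h alone 3 were called and at 28 h alone 4. For all genes, calls shared by both times were not counted. Each time has its own controls. CM and control libraries did not overlap for 12 of 13 called members at 16 h and for all 14 at 28 h (2.03% and 1.92% of all genes were called). Over all genes tested they did not overlap for 6.8% and 7.74%, and over all called genes for 92.9% and 96%. With all libraries thinned to the lowest total of the line, 13 members were called at 16 h and 15 at 28 h, at equal depth in CM and control libraries. Summed fibroblast and stellate markers, mostly Vim, ran from 7104 to 7724 CPM in CM cells and from 6686 to 7743 in controls at 16 h, and from 7303 to 8018 and 7517 to 8073 at 28 h. Of the 8 tested markers of that list, 2 were called higher and 1 lower at 16 h, and 1 higher and 1 lower at 28 h. Bile duct markers, nearly all Spp1, summed to 1941 to 2082 CPM in CM cells and 2521 to 2732 CPM in controls at 16 h, and to 1953 to 2196 and 2319 to 2410.0 CPM at 28 h. Hepatocyte markers summed to 43.5 to 49.2 and 36.5 to 40.5 CPM at 16 h and to 35.8 to 39.4 and 26.5 to 34.1 CPM at 28 h, and immune markers to 30.0 to 33.3 and 39.1 to 41.4 CPM at 28 h. The hepatocyte sum was nearly all Ass1 and Apob, and the immune sum nearly all Cd14. The part of these markers was not tested.

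Decorin (Dcn, chr10:97479609-97518143, plus strand, GRCm38), which binds collagen fibrils and TGF-beta, had the smallest adjusted p of the members at both times. It had 22.6, 22.9, 22.9 and 22.2 CPM in 16 h controls and 11.2, 11.1, 11.7 and 9.78 CPM in CM cells. At 28 h it had 39.7, 38.8, 39.4 and 39.2 CPM in controls and 19.4, 18.5, 19.4 and 17.9 CPM in CM cells. The CM values lay far below the controls at both times, at 0.483 and 0.478 of the control level. The log2 fold changes were -1.05 ± 0.06 (edgeR adjusted p = 3.86e-11) and -1.06 ± 0.06 (edgeR adjusted p = 8.72e-12). Biglycan (Bgn), the related proteoglycan, went up: 128, 127, 132 and 129 CPM in CM cells at 16 h, all above the controls (0.22 ± 0.04, edgeR adjusted p = 0.000874). At 28 h Bgn had 119, 127, 125 and 126 CPM in controls and 134, 138, 138 and 148 CPM in CM cells (0.16 ± 0.04, edgeR adjusted p = 0.0148). For Bgn, leaving out CM 28 h replicate 4 or control 28 h replicate 1 ended the call (log2 values 0.13 to 0.14, edgeR adjusted p 0.0703 to 0.0881), and over all alternatives its adjusted p ran from 0.00272 to 0.0881.

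Sfrp4 fell with CM as well. Its 16 h libraries had 4.78, 4.63, 4.71 and 4.99 CPM in controls and 2.94, 2.94, 3.14 and 2.98 CPM in CM cells, with no overlap (-0.67 ± 0.15, edgeR adjusted p = 0.0114). With limma-voom the adjusted p was 0.0702, and over all alternatives it ran from 0.000898 to 0.0702. At 28 h it had 22.3, 22.5, 25.3 and 17.6 CPM and 11.2, 9.17, 10.0 and 12.6 CPM, again apart (-1.03 ± 0.10, edgeR adjusted p = 2.34e-07). Tgfb2 rose, from 19.5, 22.1, 17.6 and 19.1 CPM in controls to 25.2, 24.1, 26.6 and 28.2 CPM at 16 h (0.41 ± 0.08, edgeR adjusted p = 0.00254) and had 29.6 to 33.1 CPM in controls and 37.3 to 45.4 CPM in CM cells at 28 h (0.36 ± 0.07, edgeR adjusted p = 0.00442). Every CM library was above every control. Tgfb1 did not pass, at 0.10 ± 0.08 and -0.01 ± 0.08.

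**Figure D4:**
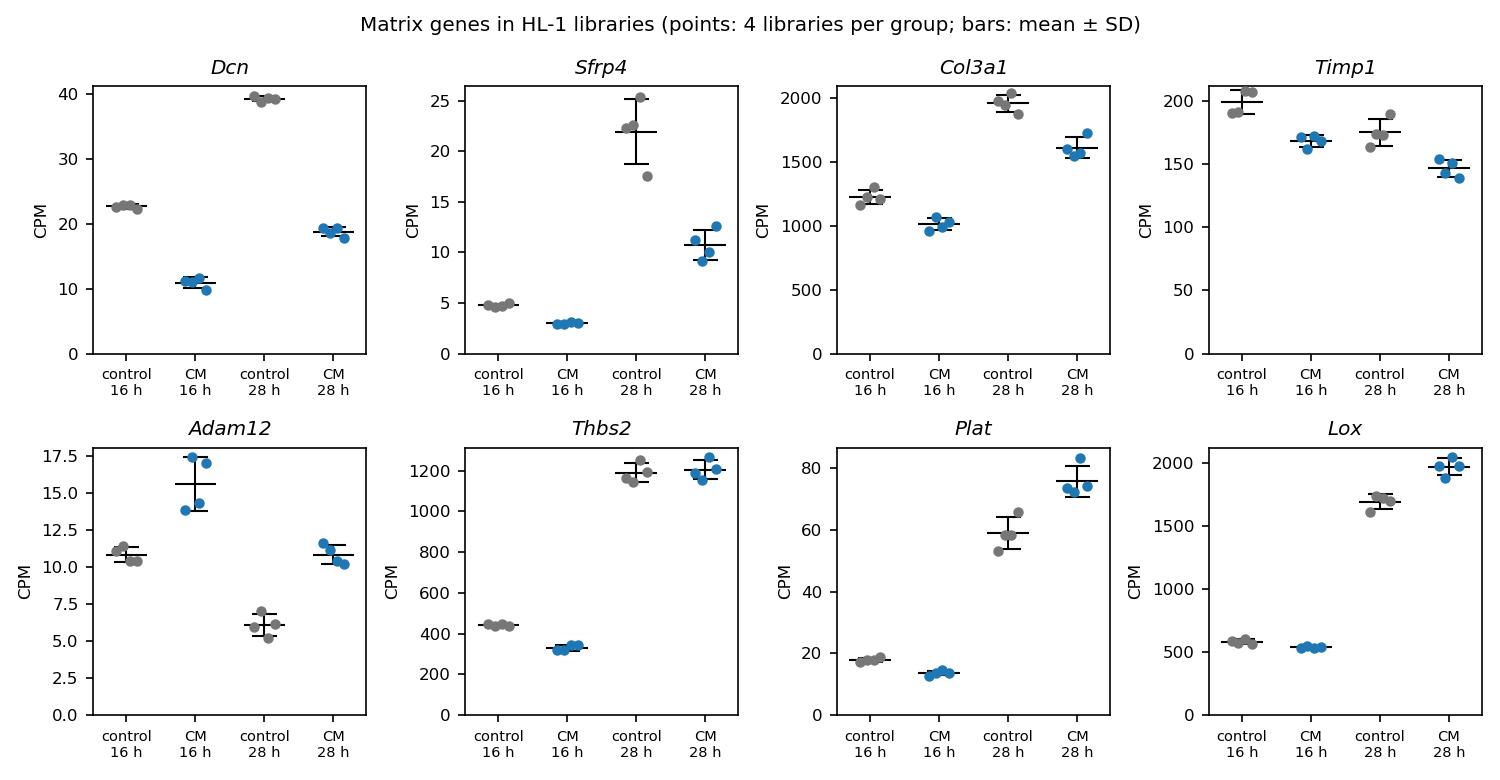
CPM of 8 members in the 16 HL-1 libraries (points, 4 per group; bars, mean ± SD), with linear axes from 0. Dcn, Col3a1 and Timp1 are lower in CM cells at both times, Plat is lower at 16 h and higher at 28 h, and Thbs2 and Lox are higher at 28 h than at 16 h (log2 change 1.43 and 1.54 in controls).

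The fibrillar collagens did not move together. Col3a1, of the type III chain, had 964, 1071, 994 and 1029 CPM in CM cells at 16 h, all below the controls (-0.28 ± 0.04, edgeR adjusted p = 0.000215). At 28 h it had 1978, 1950.0, 2044 and 1880.0 CPM in controls and 1603, 1550.0, 1574 and 1730.0 CPM in CM cells, also apart (-0.28 ± 0.04, edgeR adjusted p = 0.000158). Col12a1 rose, with 148, 145, 149 and 136 CPM in 16 h controls and 178, 175, 183 and 177 CPM in CM cells (0.30 ± 0.05, edgeR adjusted p = 0.000302), and 0.25 ± 0.05 at 28 h (edgeR adjusted p = 0.0016). The type I chain Col1a2 rose at 28 h, with 889.8 to 961 CPM in controls and 989 to 1168 CPM in CM cells (0.21 ± 0.05, edgeR adjusted p = 0.0278). For Col1a2, leaving out CM 28 h replicate 3 or 4 or control 28 h replicate 1, 2 or 4 ended the call (log2 values 0.17 to 0.21, edgeR adjusted p 0.0738 to 0.116), and over all alternatives its adjusted p ran from 9.66e-06 to 0.116. Col5a2 rose at 16 h, with 359 to 384 CPM in controls and 399.8 to 426 CPM in CM cells (0.16 ± 0.04, edgeR adjusted p = 0.0183). For Col5a2, leaving out CM 16 h replicate 2, 3 or 4 or control 16 h replicate 1 or 2 ended the call (log2 values 0.14 to 0.15, edgeR adjusted p 0.0728 to 0.0995), and over all alternatives its adjusted p ran from 0.00317 to 0.0995. Col1a1 and Col5a1 did not pass at 28 h, at 0.21 ± 0.08 and 0.25 ± 0.07. Col5a1 at 28 h passed without CM 28 h replicate 1 or 2 (log2 values 0.29 to 0.31, edgeR adjusted p 0.0207 to 0.0474) and with no low-count filter, only the compared groups in the fit and thinned counts (adjusted p 2.83e-07 to 0.0463), and over all alternatives its adjusted p ran from 2.83e-07 to 0.304. Col1a1 at 28 h passed with no low-count filter (log2 value 0.21, adjusted p 0.000299), and over all alternatives its adjusted p ran from 0.000299 to 0.65. Col5a2 at 28 h, at 0.13 ± 0.04, passed with DESeq2 and total-count scaling (log2 value 0.13 to 0.14, adjusted p 0.038 to 0.0456), and over all alternatives its adjusted p ran from 0.0365 to 0.292. None of the 5 type IV and type VI chains passed at either time in the reported edgeR fit (log2 fold changes of -0.03 to 0.15), and at an unadjusted p of 0.05 there were 0 at 16 h and 1 at 28 h. DESeq2 also called 0 at each time. Col6a1 at 28 h, at 0.15 ± 0.05, passed with no low-count filter (log2 value 0.15, adjusted p 0.021), and over all alternatives its adjusted p ran from 0.021 to 0.502.

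Among glycoproteins, Thbs2 fell at 16 h alone. It had 448, 436, 446 and 438 CPM in controls and 319, 318, 346 and 342 CPM in CM cells (-0.42 ± 0.04, edgeR adjusted p = 8.5e-08). At 28 h the groups overlapped, at 1164, 1145, 1252 and 1195 CPM and 1190.0, 1156, 1266 and 1208 CPM (0.02 ± 0.04, edgeR adjusted p = 0.889). Thbs1, its paralog, was higher in CM cells at both times, 869 to 886 against 755 to 783 CPM at 16 h (0.19 ± 0.03, edgeR adjusted p = 0.00254) and 1157 to 1280.0 against 954 to 1033 CPM at 28 h (0.28 ± 0.03, edgeR adjusted p = 1.04e-05). Smoc2 rose at 28 h from a low level, with 0.431, 0.501, 0.555 and 0.630 CPM in controls and 1.31, 1.73, 1.18 and 1.73 CPM in CM cells (1.48 ± 0.28, edgeR adjusted p = 0.00254). The groups held 35 and 109 counts and did not overlap. At 16 h Smoc2 had 0.740, 1.25, 1.42 and 1.19 CPM and 2.27, 1.52, 1.92 and 1.46 CPM, and did not pass (0.66 ± 0.23, edgeR adjusted p = 0.207). Postn had 4.49, 2.69, 2.84 and 2.00 CPM in 16 h controls and 4.64, 4.47, 4.79 and 6.07 CPM in CM cells, which overlapped through control replicate 1 (0.72 ± 0.18, edgeR adjusted p = 0.0307). For Postn, leaving out CM 16 h replicate 1, 3 or 4 or control 16 h replicate 2, 3 or 4 ended the call (log2 values 0.56 to 0.74, edgeR adjusted p 0.051 to 0.145), as did only the compared groups in the fit (adjusted p 0.113), and over all alternatives its adjusted p ran from 0.000524 to 0.145. Fn1, Sparc, Tnc and Tgfbi did not pass at either time. Tnc stood at -0.18 ± 0.05 at 16 h (edgeR adjusted p = 0.0799), where DESeq2, no low-count filter and only the compared groups in the fit called it, with adjusted p from 0.00682 to 0.205 over all alternatives. Postn at 28 h, at 0.49 ± 0.15, passed with no low-count filter and only the compared groups in the fit (log2 value 0.49 to 0.51, adjusted p 0.0138 to 0.0224), and over all alternatives its adjusted p ran from 0.0138 to 0.284.

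Of the proteases, Adam12 rose at both times: 11.1, 11.4, 10.4 and 10.4 CPM in 16 h controls against 13.8, 17.4, 14.3 and 17.0 CPM in CM cells (0.53 ± 0.09, edgeR adjusted p = 0.00128), and 5.91, 7.01, 5.22 and 6.17 against 11.6, 11.1, 10.4 and 10.2 CPM at 28 h (0.84 ± 0.10, edgeR adjusted p = 1.41e-05). No CM library reached down to a control. Plat changed direction. It lay at 17.2, 17.8, 17.9 and 18.7 CPM in 16 h controls and 12.6, 13.7, 14.4 and 13.7 CPM in CM cells (-0.39 ± 0.08, edgeR adjusted p = 0.00353), but at 53.3, 58.3, 58.2 and 65.7 CPM and 73.6, 72.2, 83.1 and 74.0 CPM at 28 h (0.36 ± 0.06, edgeR adjusted p = 0.000414). The CM libraries were all lower at 16 h and all higher at 28 h. Timp1 fell, with 172, 162, 173 and 168 CPM in CM cells at 16 h (-0.24 ± 0.04, edgeR adjusted p = 0.00259). At 28 h it had 164, 174, 174 and 189.9 CPM in controls and 154, 143, 151 and 139 CPM in CM cells (-0.26 ± 0.05, edgeR adjusted p = 0.0013), below the controls in all libraries. Adamts1 fell at 28 h, with 37.5 to 44.9 CPM in controls and 34.1 to 36.6 CPM in CM cells (-0.25 ± 0.06, edgeR adjusted p = 0.0197), and stood at -0.02 ± 0.06 at 16 h. For Adamts1, leaving out CM 28 h replicate 1 or 3 or control 28 h replicate 1 or 3 ended the call (log2 values -0.26 to -0.22, edgeR adjusted p 0.0562 to 0.102), and over all alternatives its adjusted p ran from 0.00418 to 0.102. Mmp2, Mmp14, Timp2 and Timp3 did not pass. Mmp14 at 16 h, at 0.17 ± 0.07, passed with no low-count filter (log2 value 0.18, adjusted p 0.00526), and over all alternatives its adjusted p ran from 0.00526 to 0.679. At 28 h, at 0.16 ± 0.06, it passed with no low-count filter (log2 value 0.16, adjusted p 0.0204), and over all alternatives its adjusted p ran from 0.0204 to 0.733. Mmp2 at 28 h, at -0.21 ± 0.06, passed without CM 28 h replicate 4 (log2 value -0.25, edgeR adjusted p 0.0316) and with DESeq2 and no low-count filter (adjusted p 0.0153 to 0.0496), and over all alternatives its adjusted p ran from 0.0153 to 0.216. Timp3 at 28 h, at -0.13 ± 0.04, passed without CM 28 h replicate 3 (log2 value -0.17, edgeR adjusted p 0.0326), and over all alternatives its adjusted p ran from 0.0326 to 0.321.

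Lox was the lysyl oxidase that CM changed, at 28 h: 1611, 1739, 1728 and 1705 CPM in controls and 1980.0, 1888, 2051 and 1978 CPM in CM cells, with no overlap (0.22 ± 0.03, edgeR adjusted p = 0.000352). At 16 h its CM libraries had 535, 546, 534 and 539.5 CPM, below the controls, and the difference did not pass (-0.12 ± 0.03, edgeR adjusted p = 0.101). DESeq2 called it, and over all alternatives its adjusted p ran from 0.0208 to 0.168. Loxl1, Loxl2 and Loxl3 did not pass at either time. Loxl2 at 16 h, at -0.27 ± 0.09, passed without CM 16 h replicate 4 (log2 value -0.37, edgeR adjusted p 0.0165), and over all alternatives its adjusted p ran from 0.0165 to 0.395. The elastic fibre genes Fbn1, Fbln1 and Fbln2 did not pass with edgeR (0 of 3 at each time, 1 at 16 h and 0 at 28 h at an unadjusted p of 0.05, 0 by DESeq2), and Fbln2 stood at 0.16 ± 0.05 at 16 h (edgeR adjusted p = 0.116). Fbln2 passed with no low-count filter (log2 value 0.17, adjusted p 0.0183), and over all alternatives its adjusted p ran from 0.0183 to 0.364.

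The CM effect differed between the times for 3 of 39 members (7.69% called, against 0.277% of all genes, 0.104% higher and 0.173% lower), and all 3 differences, 28 h minus 16 h, were above 0. They were Plat (0.76 ± 0.10, edgeR adjusted p = 6.13e-05), Thbs2 (0.43 ± 0.05, edgeR adjusted p = 4.01e-05) and Lox (0.33 ± 0.05, edgeR adjusted p = 0.00044), a protease, a glycoprotein and a cross-linking enzyme. Each was lower in CM cells at 16 h, called for Plat and Thbs2, and at or above the controls at 28 h. Col5a1, at 0.28 ± 0.10, passed with no low-count filter (log2 value 0.27, adjusted p 0.0012), and over all alternatives its adjusted p ran from 0.0012 to 0.754. Smoc2, called at 28 h alone, did not pass this test (0.83 ± 0.37, edgeR adjusted p = 0.667).

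Across the lines, 26 members were tested in both. Those called against control in both at some time were Adam12, Postn, Adamts1, Col12a1, Thbs1, Tgfb2 and Plat. How many of all genes were called in both lines was not computed. Adam12 was higher in treated cells in all 4 comparisons. Postn was called higher at the earlier time alone in each line, and both calls were lost under several alternatives, as given above. Adamts1 was called lower at both times in AML12 but at 28 h alone in HL-1, where leaving out some single libraries ended the call. Col12a1, Thbs1 and Tgfb2 were lower in DEX-treated AML12 and higher in CM-treated HL-1: Thbs1 stood at -1.34 and -0.35 in AML12 and at 0.19 and 0.28 in HL-1 (log2 fold change, earlier and later time), and Col12a1 at -0.69 and -0.21 against 0.30 and 0.25. Plat was lower in AML12 at both times, and in HL-1 lower at 16 h and higher at 28 h. The other called members, such as Tnc and Col6a1 in AML12 or Dcn and Timp1 in HL-1, were called in 1 line. The treatments, times and tables differ between the lines, and the difference between them was not tested.

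**Figure D5:**
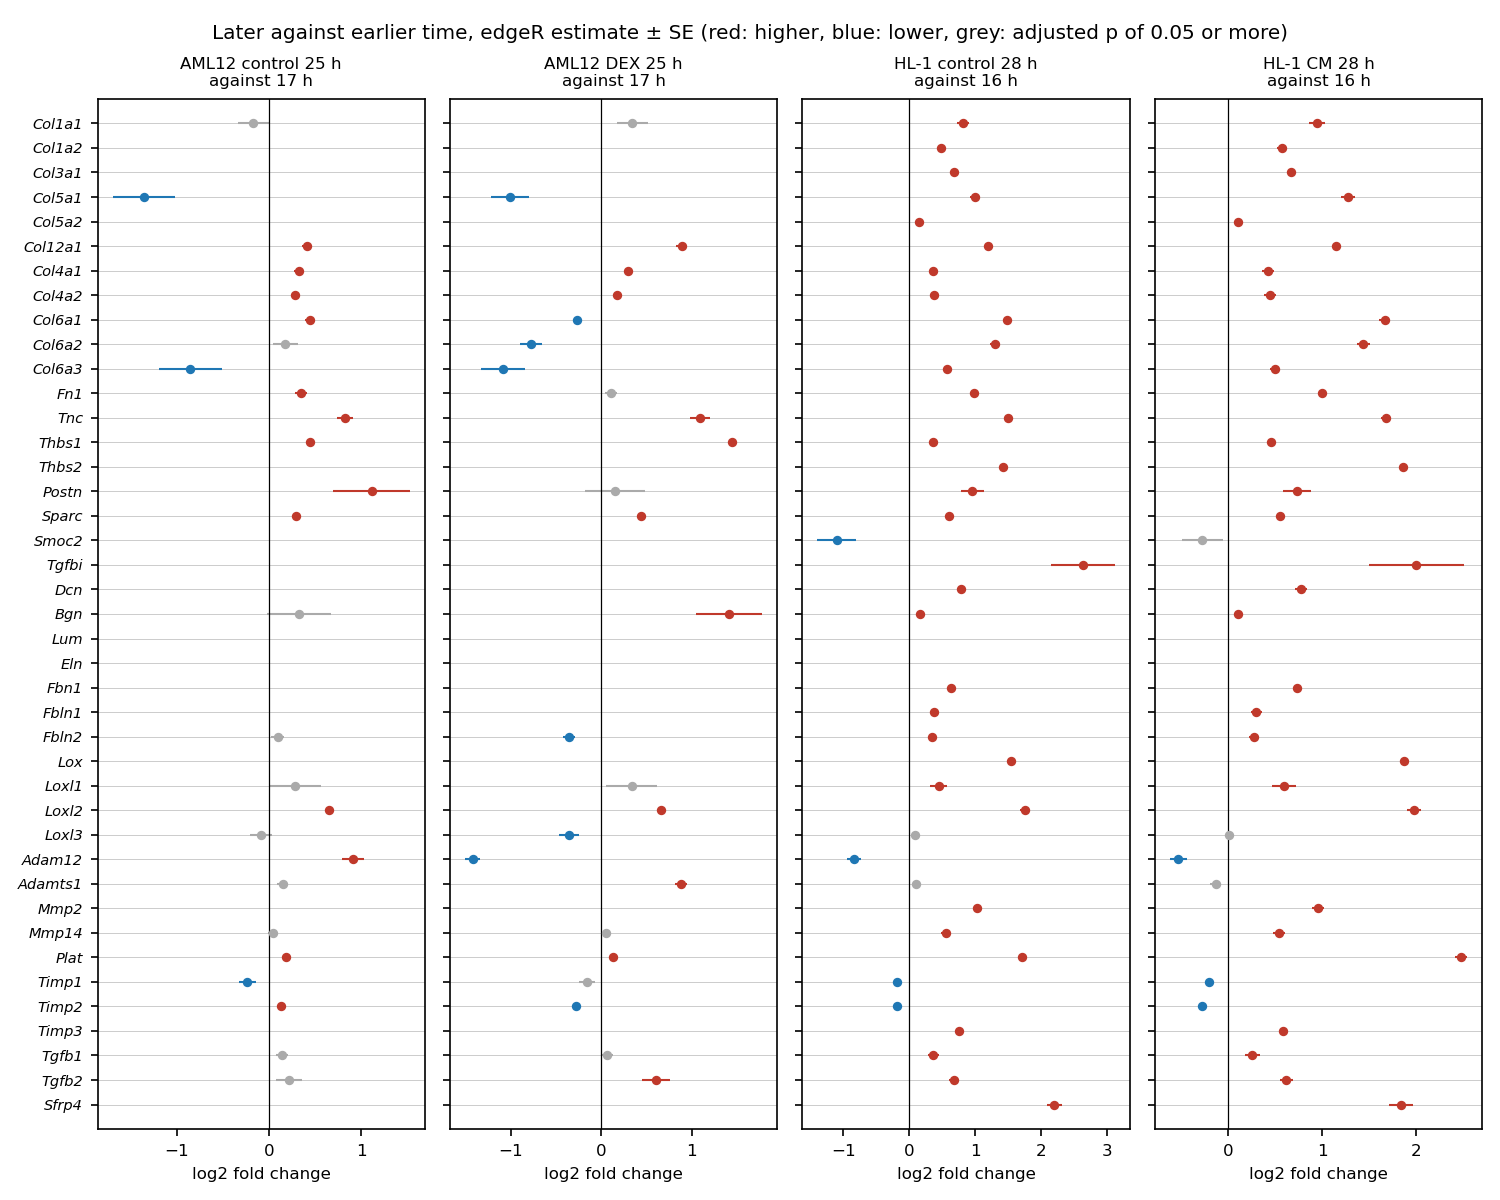
Log2 fold change of each tested member (points, edgeR estimate; bars, SE) for the late against the early libraries of a treatment, 1 panel per comparison with its own horizontal scale. In HL-1, 33 members are higher at 28 h in control and in CM cells alike, while in AML12 they fall on both sides of 0.

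Most HL-1 matrix genes were higher at the later time. In controls, 33 of 39 tested members were higher at 28 h than at 16 h and 4 were lower (94.9% called, against 62.8% of all genes, 31.5% higher and 31.3% lower). In CM cells 33 were higher and 3 lower (92.3%, against 65.4%, 32.6% and 32.9%). The same 33 genes rose in both, and the same 3 fell. How many of all genes rose in both or fell in both was not computed. The median log2 change of the members was 0.64 in controls and 0.60 in CM cells, against 0.00 for all genes tested. Together the members took 1.18 ± 0.0317% of the library at 16 h and 2.01 ± 0.0559% at 28 h in controls (mean ± SD, n = 4), and 1.19 ± 0.0267% and 2.09 ± 0.102% in CM cells. Groups did not overlap for any of the 37 control calls, and for 35 of 36 in CM cells. Over all genes tested they did not overlap for 55.8% in controls and 58.2% in CM cells, and over all called genes for 86.5% and 87.1%. Summed fibroblast and stellate markers, mostly Vim (a mean of 6284 CPM in HL-1), ran from 6686 to 7743 CPM at 16 h and from 7517 to 8073 at 28 h in controls. Of the 8 tested markers of that list, 4 were called higher at 28 h and 2 lower. Other marker sums did not overlap between these control groups: cardiomyocyte markers had 885 to 932 CPM at 16 h and 1135 to 1191 at 28 h, immune markers 24.5 to 26.3 and 39.1 to 41.4, bile duct markers 2521 to 2732 and 2319 to 2410.0, and hepatocyte markers 36.5 to 40.5 and 26.5 to 34.1. Endothelial markers summed to 0.516 to 0.873 and 1.45 to 2.19 CPM. By mean level in HL-1, the cardiomyocyte sum was nearly all Des (524 CPM) and Gja1 (466 CPM), and Des is also in the fibroblast list. The immune sum was nearly all Cd14 (27.8 CPM), the hepatocyte sum Ass1 (30.1 CPM) and Apob (7.87 CPM), and the bile duct sum Spp1. A change of such a sum is thus that of a few genes. The part of these markers was not tested.

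The rise covered every role group. All 6 fibrillar and fibril-associated chains rose in controls, from 0.15 ± 0.04 for Col5a2 to 1.20 ± 0.05 for Col12a1, and all 5 network and beaded chains, from 0.36 ± 0.06 for Col4a1 to 1.49 ± 0.06 for Col6a1. Col6a1 had 203, 218, 239.5 and 212 CPM at 16 h and 612, 599.7, 632 and 604 CPM at 28 h, well apart (edgeR adjusted p = 2.94e-17). Of the lysyl oxidases, Lox went from 592, 576, 603 and 563 to 1611, 1739, 1728 and 1705 CPM (1.54 ± 0.04, edgeR adjusted p = 1.78e-21) and Loxl2 from 16.9, 16.4, 17.7 and 17.6 to 55.4, 57.2, 60.1 and 59.7 CPM (1.76 ± 0.08, edgeR adjusted p = 3.2e-16). Loxl1 rose less (0.45 ± 0.13) and Loxl3 did not pass (0.09 ± 0.05). Among glycoproteins, Tnc rose by 1.49 ± 0.05, Thbs2 by 1.43 ± 0.04 and Fn1 by 0.98 ± 0.04, with Fn1 at 2259, 2444, 2335 and 2303 CPM at 16 h and 4597, 4465, 4935 and 4436 CPM at 28 h. Tgfbi had the largest log2 change (2.63 ± 0.48, edgeR adjusted p = 3.94e-05) at the lowest level, with 9 counts at 16 h and 59 at 28 h. Sfrp4 had 4.78, 4.63, 4.71 and 4.99 CPM at 16 h and 22.3, 22.5, 25.3 and 17.6 CPM at 28 h (2.20 ± 0.11, edgeR adjusted p = 1.12e-14), Plat rose by 1.72 ± 0.07 and Mmp2 by 1.03 ± 0.06.

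The members that fell with time in HL-1 were Adam12 (-0.84 ± 0.11 in controls, -0.53 ± 0.09 in CM cells) and the inhibitors Timp1 (-0.18 ± 0.04 and -0.20 ± 0.04) and Timp2 (-0.19 ± 0.03 and -0.28 ± 0.03). The third inhibitor, Timp3, rose (0.75 ± 0.04 and 0.58 ± 0.04). Smoc2 fell in controls (-1.10 ± 0.30, edgeR adjusted p = 0.00227) and stood at -0.27 ± 0.22 in CM cells (edgeR adjusted p = 0.285). Adamts1 did not pass in controls (0.11 ± 0.06) or in CM cells (-0.13 ± 0.06). It passed without control 28 h replicate 4 (log2 value 0.16, edgeR adjusted p 0.024), and over all alternatives its adjusted p ran from 0.024 to 0.343. In CM cells it passed without CM 16 h replicate 3 or CM 28 h replicate 2 (log2 value -0.15, edgeR adjusted p 0.0438 to 0.0489) and with no low-count filter (adjusted p 0.0483), and over all alternatives its adjusted p ran from 0.0438 to 0.187. In CM cells, Bgn rose by 0.11 ± 0.04 and Tgfb1 by 0.26 ± 0.08. The call of Bgn was lost without CM 28 h replicate 4 (log2 value 0.08, edgeR adjusted p 0.0578) and with no low-count filter (adjusted p 0.16), and over all alternatives its adjusted p ran from 0.00336 to 0.16. That of Tgfb1 was lost without CM 28 h replicate 4 (log2 value 0.16, edgeR adjusted p 0.0589), and over all alternatives its adjusted p ran from 2.8e-05 to 0.0589. Col5a2 in CM cells, at 0.11 ± 0.04, lost its call with no low-count filter (log2 value 0.09, adjusted p 0.0832), and over all alternatives its adjusted p ran from 0.00247 to 0.0832.

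In AML12 controls, 13 of 26 tested members were higher at 25 h than at 17 h and 3 lower (61.5% called, against 43.5% of all genes, 22.1% higher and 21.4% lower). In DEX cells 11 were higher and 8 lower (73.1%, against 56%, 27.8% and 28.2%). The median log2 change was 0.25 in controls and 0.14 in DEX cells, against -0.01 and 0.00 for all genes. In both treatments 8 rose, among them Tnc (0.83 and 1.09), Loxl2 (0.65 and 0.66), Thbs1 (0.45 and 1.44) and Col4a1 (0.32 and 0.30), and 2 fell, Col5a1 (-1.35 and -1.01) and Col6a3 (-0.85 and -1.09). The share of all genes called alike in both treatments was not computed. Adam12 rose with time in controls (0.91 ± 0.12, edgeR adjusted p = 1.31e-06) and fell in DEX cells (-1.42 ± 0.08, edgeR adjusted p = 1.06e-12). Timp2 and Col6a1 did likewise, at 0.14 and -0.28 for Timp2 and 0.44 and -0.26 for Col6a1. With total counts as the only scaling the control value of Timp2 was 0.09. Adamts1 rose in DEX cells by 0.88 ± 0.06 and stood at 0.15 ± 0.06 in controls. The control value passed with no low-count filter and only the compared groups in the fit (log2 value 0.14 to 0.15, adjusted p 0.000818 to 0.0185), and over all alternatives its adjusted p ran from 0.000818 to 0.188. Tgfb1 in controls, at 0.14 ± 0.06, passed with only the compared groups in the fit and thinned counts (log2 value 0.14 to 0.16, adjusted p 0.00712 to 0.0438), and over all alternatives its adjusted p ran from 0.00712 to 0.209. In controls the call of Col6a3 was lost without control 17 h replicate 1, 2 or 3 or control 25 h replicate 1, 2 or 3 (log2 values -0.93 to -0.74, edgeR adjusted p 0.0574 to 0.122) and with DESeq2, no low-count filter and thinned counts (adjusted p 0.056 to 0.0791), and over the 15 of 16 alternatives that tested it, its adjusted p ran from 0.0351 to 0.122. That of Postn, at 1.11 ± 0.42, was lost without control 17 h replicate 1 or 3 or control 25 h replicate 2 or 3 (log2 values 0.84 to 1.09, edgeR adjusted p 0.0667 to 0.148) and with DESeq2 (adjusted p 0.0583), and over the 15 of 16 alternatives that tested it, its adjusted p ran from 0.0224 to 0.148. That of Timp1, at -0.23 ± 0.09, was lost without control 17 h replicate 1, 2 or 4 or control 25 h replicate 2, 3 or 4 (log2 values -0.25 to -0.18, edgeR adjusted p 0.0521 to 0.162), and over all alternatives its adjusted p ran from 0.00836 to 0.162. In DEX cells the call of Plat, at 0.13 ± 0.05, was lost without DEX 17 h replicate 1, 2 or 4 or DEX 25 h replicate 1, 2 or 3 (log2 values 0.10 to 0.13, edgeR adjusted p 0.0548 to 0.131) and with only the compared groups in the fit and thinned counts (adjusted p 0.0553 to 0.0554), and over all alternatives its adjusted p ran from 0.00443 to 0.131. That of Loxl3, at -0.36 ± 0.11, was lost without DEX 17 h replicate 1 (log2 value -0.25, edgeR adjusted p 0.0649), and over all alternatives its adjusted p ran from 0.0023 to 0.0649. Col1a1, at 0.35 ± 0.17, passed without DEX 25 h replicate 1 or 3 (log2 values 0.42 to 0.45, edgeR adjusted p 0.0271 to 0.0487), and over all alternatives its adjusted p ran from 0.0271 to 0.271. Fn1, at 0.10 ± 0.07, passed without DEX 17 h replicate 2 (log2 value 0.15, edgeR adjusted p 0.0448), and over all alternatives its adjusted p ran from 0.0255 to 0.541. Tgfb1, at 0.06 ± 0.06, passed without DEX 17 h replicate 2 (log2 value 0.15, edgeR adjusted p 0.0156), and over all alternatives its adjusted p ran from 0.0156 to 0.909. Timp1, at -0.16 ± 0.09, passed without DEX 17 h replicate 4 (log2 value -0.24, edgeR adjusted p 0.0273), and over all alternatives its adjusted p ran from 0.0273 to 0.367.

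Genes that work with the members moved in both directions. With DEX at 17 h, 6 of 19 tested TGF-beta pathway genes rose and 9 fell. Ccn2, a matricellular target of TGF-beta, rose by 1.80 ± 0.07, and the ligand Tgfb3 stood at -0.85 ± 0.05. Of 19 matrix receptors 4 rose and 6 fell, with the collagen-binding integrin Itga1 at -1.21 ± 0.06 and the hyaluronan receptor Cd44 at -0.80 ± 0.05. Of 12 laminins and other basement membrane genes 4 rose and 2 fell (Col15a1 0.62 ± 0.05), of 11 collagen folding and processing genes 2 and 2 (the prolyl hydroxylase P4ha2 -0.34 ± 0.05), and of 14 other proteases and inhibitors 3 and 5 (Adam9 0.78 ± 0.05). At 25 h the counts were 1 up and 5 down for the TGF-beta pathway (Tgfb3 -0.45 ± 0.05), 5 and 5 for receptors (the syndecan Sdc1 -0.34 ± 0.06), 1 and 0 for basement membrane genes (the laminin chain Lamb3 0.25 ± 0.05), 1 and 2 for collagen processing (P4ha2 -0.37 ± 0.05), and 1 and 3 for proteases (Adam9 0.32 ± 0.05). Of all genes, 38.4% and 11.7% were called at these times. With CM in HL-1 at 16 h, 2 of 20 TGF-beta pathway genes rose, Ccn2 among them (0.59 ± 0.09), and 1 fell (Tgfbr3 -0.27 ± 0.06), 0 of 20 receptors rose and 3 fell (Itgb3 -0.34 ± 0.05), and of 15 basement membrane genes 2 rose and 3 fell (nidogen, Nid1, -0.26 ± 0.04). Of 18 collagen processing genes 2 rose and 1 fell (P3h2 -0.38 ± 0.09), and of 17 other proteases and inhibitors 3 fell, with Plau at -0.26 ± 0.05. At 28 h, edgeR called 0 of 20 receptors, 0 of 18 collagen processing genes and 0 of 20 TGF-beta pathway genes. At an unadjusted p of 0.05 there were 6, 1 and 4, and DESeq2 called 1, 0 and 0. There 2 basement membrane genes rose (Lamb3 0.51 ± 0.10 and Lama2 0.24 ± 0.05) and 1 fell, and Plau, the urokinase gene, rose by 0.25 ± 0.05. Of all HL-1 genes, 2.03% and 1.92% were called.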

How the data were processed

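Total RNA of 16 AML12 and 16 HL-1 libraries was sequenced. Per the submitters' processing notes, FastQC 0.11.8 and STAR were used with the mouse build mm10 (GRCm38). How reads were counted, on which strand and with which annotation, is not given in the sources used here. The deposited values are raw read counts per Ensembl gene, 1 table per line, and the authors' means or fold changes were not used. The AML12 table lists no gene with 0 counts in all libraries, while the HL-1 table lists 23808 such genes.

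Members were matched by symbol and Ensembl ID, and gene positions and exon-union lengths came from GENCODE M21 on GRCm38. Each line was fitted on its own with edgeR 4.0.16 (R 4.3.3): all 4 groups in 1 quasi-likelihood fit, TMM scaling, the filterByExpr filter by group, and Benjamini-Hochberg adjustment over all genes tested, called at 0.05. CPM are relative to the TMM-scaled library size, and RPKM divide them by exon-union length. With 15.0 to 19.3 M counts per library, members near or under 1 CPM rest on few counts.

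The 41 members and the other gene lists were chosen with earlier results of these data known. Values in every library are given for members called in a treated against control comparison with non-overlapping groups and a log2 fold change of at least 0.5 in size, and for the highest member per length of each role in each line; from each pathway list, genes with the smallest p were named. Alternatives were RLE or total-count scaling, limma-voom (limma 3.58.1), DESeq2 1.42.0, no filter on low counts, a replicate block, only the compared groups, thinning to the lowest total of the line, leaving out each library, and the longest transcript as length. No protein sequences were used. A result of the list of other matrix proteases and inhibitors is not reported here.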

Additional observations from a re-analysis of the deposited data

Results flagged for a closer look

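In 15 of 238 groups of 4 libraries with a mean of at least 1 CPM, 1 library lay farther from the rest than Dixon's critical value allows, and chance alone gives some such groups. DEX 25 h replicate 4 of AML12 accounted for 4 of them: Fn1 at 1316 CPM (the others 1531 to 1538), Tnc at 15.6 CPM (24.0 to 25.2), Adamts1 at 156 CPM (203 to 212) and Adam12 at 24.6 CPM (17.4 to 18.0). Each of these lies farther from the controls than the rest of its group.

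In the other AML12 groups, Col4a1 had 485 CPM in control 17 h replicate 2 (453 to 457), Col4a2 had 310.0 CPM in DEX 17 h replicate 4 (340 to 345) and 355 CPM in control 25 h replicate 4 (394 to 400), and Timp2 had 633 CPM in DEX 25 h replicate 2 (624 in the rest). In HL-1 controls at 28 h, replicate 3 had 355 CPM of Col12a1 (323 to 325) and 285 CPM of Col4a1 (268 to 270.4). In CM 16 h replicate 1, Col6a3 had 1162 CPM (1191 to 1196) and Mmp2 29.4 CPM (33.9 to 34.7). Fbn1 had 131 CPM in control 16 h replicate 2 (117 to 119), Fbln1 101 CPM in CM 28 h replicate 4 (90.2 to 91.1) and Plat 83.1 CPM in CM 28 h replicate 3 (72.2 to 74.0).

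The effect of treatment differed between the times by the test of the difference itself for 11 members. In AML12 the log2 difference, 25 h minus 17 h, was -2.33 for Adam12, -0.95 for Col6a2, -0.71 for Col6a1, -0.45 for Fbln2, -0.42 for Timp2, 0.99 for Thbs1, 0.73 for Adamts1 and 0.48 for Col12a1. In HL-1 it was, 28 h minus 16 h, 0.76 for Plat, 0.43 for Thbs2 and 0.33 for Lox.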

How the results depend on the processing

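The counts of called members stayed within 1.5 times the reported count under every alternative run. With a replicate block, 19 members were called for DEX at 17 h, 13 at 25 h and 9 for their difference, and 16 and 20 with time in AML12 controls and DEX cells. In HL-1 the block gave 15 at 16 h, 17 at 28 h, 3 for their difference, and 37 and 36 with time. Same-numbered libraries deviated together with correlations of -0.119 to 0.121, with no pair of groups over 0.1 in all 4. Such correlations over all genes cannot tell whether a shared culture or day touched a smaller set of genes. The block added calls for Col4a1 (DEX, both times), Fbln2 and Tnc (CM 16 h), Col5a1, Col5a2 and Mmp2 (CM 28 h) and Fn1 (DEX with time, and the difference), and ended none. Leaving out each library in turn gave 16 to 19 and 9 to 13 members for DEX, 8 to 10 for the difference, 13 to 15 and 17 to 20 with time in AML12, then 11 to 12 and 11 to 15 for CM, 3 for the difference in each fit, and 37 to 38 and 34 to 37 with time in HL-1. With no low-count filter, 20 members were called for CM at 28 h against 14. With the longest transcript as length, 20 AML12 and 37 HL-1 members reached 1 RPKM against 18 and 36. Of 176 calls in all comparisons 21 were lost under some alternative that tested the gene, 13 of the 57 in treated against control, and none reversed. A call whose gene an alternative left untested is not counted as lost there. With only the compared groups in the fit, 36 of 37 control and 35 of 36 CM time calls of HL-1 stayed, and 17 of 19 DEX time calls of AML12. Depth limits the tested members with a mean under 1 CPM (Col6a3, Postn, Bgn and Loxl1 in AML12, Tgfbi in HL-1).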
